A study of Oryza sativa with 36 samples.

Results

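Mature florets of the rice cultivar IR64 were compared with IR64 florets of stage 5, the last of 5 numbered developing stages, across the genes of a deposited RNA-seq count table. The comparison used 6 of the 36 libraries of the series, 3 per group, chosen by the cultivar and stage in their column names. IR64 is an indica cultivar, and both groups came from its non-transgenic plants. Growth cabinets ran at 30 °C in the light and 24 °C in the dark, with a 12 h photoperiod and 60% relative humidity. Developing florets were taken between about 75 and 85 days after sowing, each library from the mixed RNA of 3 plants. Mature florets were taken at about 95 days, once panicles had headed and before the flowers opened, and the sources used here do not give the number of plants behind each mature library. The labels number the developing stages without describing them. The same step in OsEPF1-oeS (OsEPF1-oe in the sample titles), a transgenic line that overexpresses the stomatal peptide gene OsEPF1 in IR64, was used to see where the IR64 step differed. The sources used here do not name the promoter of that transgene.

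A rice floret is closed by a hull of lemma and palea, which surrounds the lodicules, stamens and pistil. Before anthesis the hull cells stop expanding, green and stiffen with lignin and silica, and the tapetum, the nurse layer of the anther, breaks down while microspores become pollen that stores starch. Whole florets were sequenced, so in every result below fewer cells of a type and less RNA per cell cannot be told apart.

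The 6 libraries held 22372257 to 28471212 counts. The stage 5 libraries devoted 4.18% ± 0.44 (SD, n = 3) of their counts to their 10 most abundant genes and the mature libraries 5.06% ± 0.41, and 27440 ± 225 against 28100 ± 199 genes had a count. Each of these differences had an exact two-sided permutation p of 0.1, the smallest that 3 against 3 libraries allow. Replicates spread more in mature florets, with a median SD of 0.299 on the log2 scale against 0.188 at stage 5. Mature replicate 3 stood apart from the other mature libraries, correlating with them at 0.971 and 0.974 across genes, where replicates 1 and 2 correlated at 0.989. Floral MADS-box genes, which define this tissue, were detected in both groups, for example MADS1 at 776, 746 and 841 CPM (counts scaled to a common library size by edgeR's TMM method) at stage 5 and 821, 729 and 728 CPM in mature florets.

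Most of the measured transcriptome differed between stage 5 and mature florets. Of 37862 gene IDs, 26726 had enough counts to be tested, and 18341 of them (68.6%) passed a Benjamini-Hochberg adjusted p of 0.05 in edgeR's quasi-likelihood test. In mature florets 9636 genes (36.1%) were higher and 8705 (32.6%) lower, and these 2 shares are the background for every count of listed genes below. Changes reached at least 2-fold in 6868 of the higher genes and in 4871 of the lower ones (25.7% and 18.2% of all tested genes). They reached at least 8-fold in 3244 and 1427. A test against a change of 2-fold called 5636 genes higher and 3665 lower. The median log2 fold change over all tested genes was 0.02, and the median absolute change was 0.90 with a median standard error of 0.22. The near-even split depends on the scaling, because the TMM factors were 0.967 to 0.987 at stage 5 and 0.745 to 0.819 in mature florets. With library totals alone the all-gene median moved to −0.29 and the split to 7745 higher and 11588 lower, and with upper-quartile scaling the median was −0.15. Fold changes below are relative to the TMM scale.

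**Figure D1:**
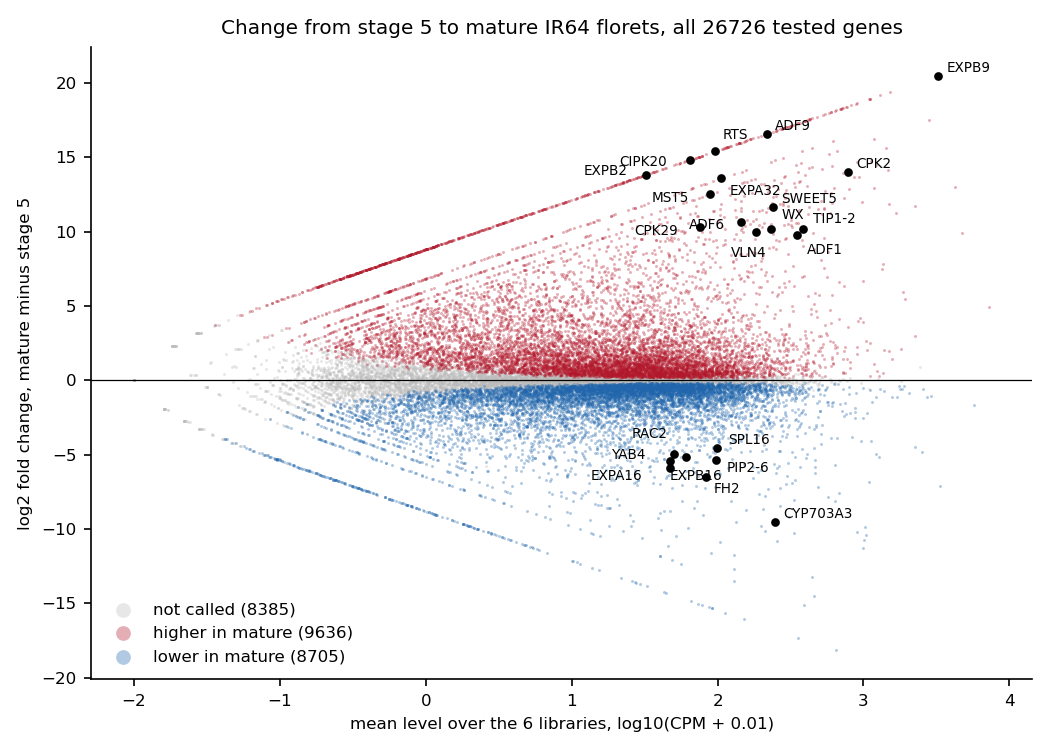
Log2 fold change (mature minus stage 5) of each tested gene against its mean level over the 6 libraries on a log10 axis of CPM plus 0.01. Red points are the 9636 genes called higher in mature florets, blue the 8705 called lower and grey the rest; black points are the named genes with the largest changes, from EXPB9 at the top to CYP703A3 at the bottom. The straight outer edges are genes with no count in 1 group, whose fitted fold change is no bound.

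Gene names were available for 556 listed IDs, of which 528 passed the filter on low counts. Among these 528 genes 233 were higher and 193 lower, with a median of 0.14. A gene that passed the filter through the group where it is high is bound to differ, so the counts over tested members describe the lists and are not evidence about them.

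Genes of photosynthesis and chlorophyll synthesis were higher in mature florets. Of 13 tested photosynthesis genes 11 rose and none fell (median log2 fold change 2.29), and of 15 chlorophyll and carotenoid genes 14 rose and none fell (median 1.48). RCA, which encodes Rubisco activase, stood at 62.5, 48.1 and 66.6 CPM in the stage 5 libraries and at 3810, 3473 and 3756 CPM in the mature ones. Every mature library was far above every stage 5 library, a separation found in 35.2% of all tested genes with mature florets higher and in 31.5% with mature florets lower, and the change was 5.96 ± 0.21 (log2 fold change ± SE, n = 3 per group, adjusted p = 1.23e-19). CAB1R, which encodes a chlorophyll-binding antenna protein, was at 590, 471 and 474 CPM and then at 3629, 2638 and 5677 CPM (2.96 ± 0.41, adjusted p = 2.58e-07), so that its groups did not overlap although the mature libraries spread widely. Reads of the near-identical antenna genes may be shared, and the related CAB2R, at 1763, 1796 and 1616 CPM before and 3594, 1751 and 4181 CPM after, overlapped between groups and did not pass the test (0.88 ± 0.41, adjusted p = 0.0608). GLO1, which encodes glycolate oxidase of photorespiration, went from 0.67, 0.217 and 1.24 CPM to 56.9, 50.2 and 62.3 CPM (6.34 ± 0.34).

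CHLH encodes the large subunit of magnesium chelatase, which opens the chlorophyll branch. It was at 112, 78.3 and 139 CPM at stage 5 and at 933, 908 and 804 CPM in mature florets, with no overlap (3.00 ± 0.20, adjusted p = 9.51e-14). CAO, which makes chlorophyll b, changed by 2.37 ± 0.31, and PSY2 and PSY1, which open the carotenoid pathway, by 2.67 ± 0.22 and 1.55. PORA, a protochlorophyllide reductase, was the member with no call, at 535, 381 and 731 CPM against 561, 258 and 460 CPM. The smallest call of this list depended on the scaling, since CHLG, chlorophyll synthase, was 0.28 ± 0.07 higher and −0.03 with library totals alone. Of 4 tested chlorophyll breakdown genes 3 rose, among them NYC1, a chlorophyll b reductase (1.38 ± 0.15), and SGR, the stay-green magnesium dechelatase (2.29 ± 0.38). The summed level of the photosynthesis list was 3718 to 4112 CPM in the stage 5 libraries and 13560 to 23970 CPM in the mature ones.

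**Figure D2:**
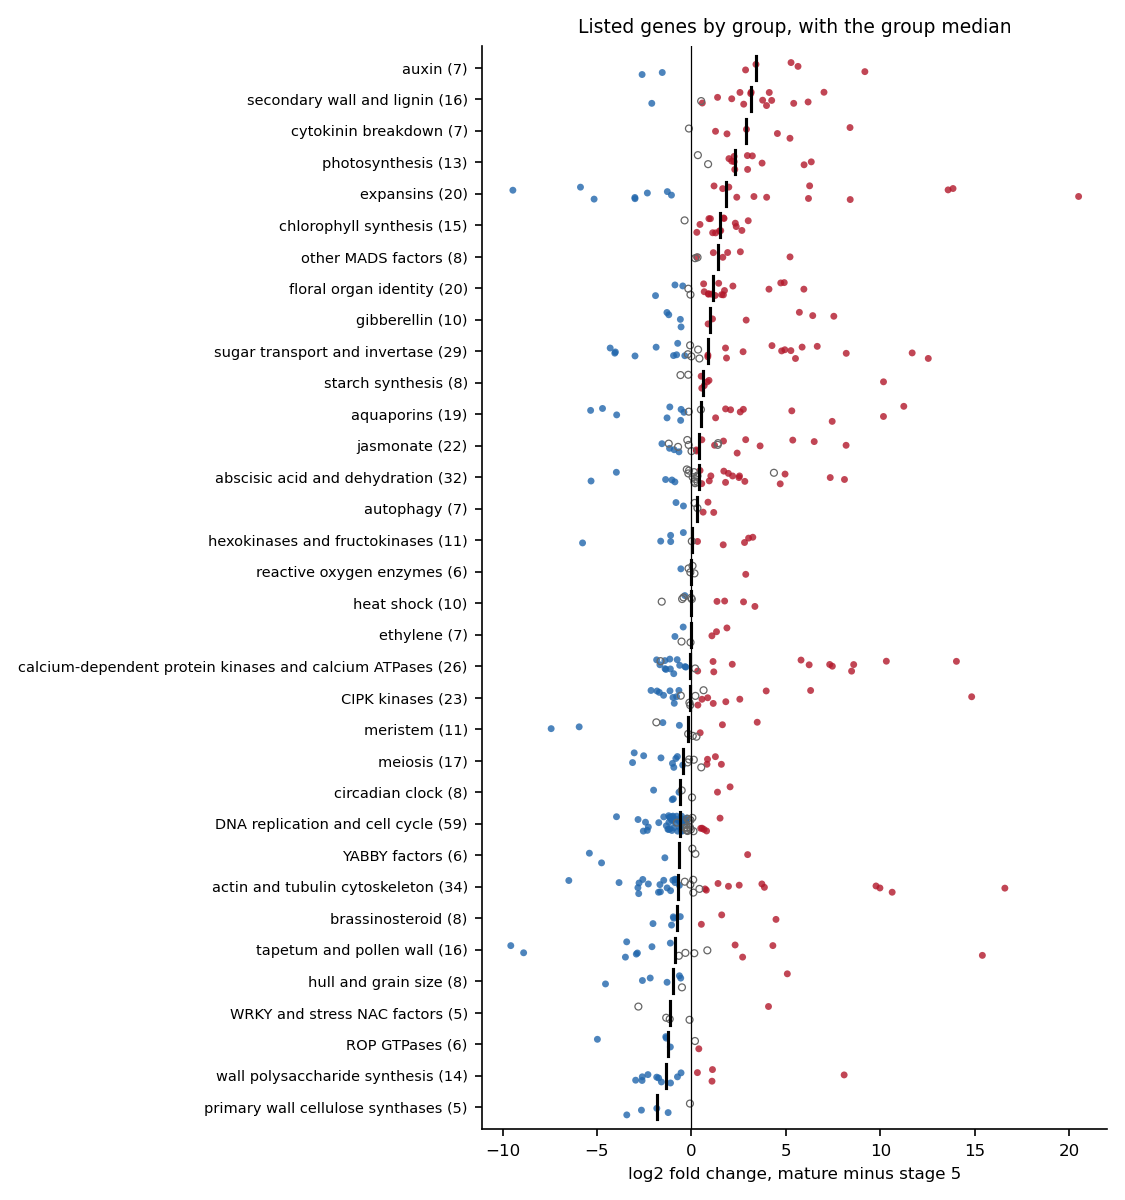
Log2 fold change (mature minus stage 5) of each tested gene in lists with at least 5 tested members, with the number tested in brackets. Filled red and blue points passed the test, open points did not, and each black bar is the list's median, which is 3.15 for secondary wall and lignin and −1.83 for the primary wall cellulose synthases.

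Cellulose synthase genes of the primary and of the secondary wall changed in opposite directions. Of 5 primary wall CESA genes 4 fell and none rose (median −1.83), while 14 of 16 secondary wall and lignin genes rose and 1 fell (median 3.15). CESA1, a subunit of the primary wall complex, stood at 1370, 1106 and 1653 CPM at stage 5 and at 486, 429 and 243 CPM in mature florets (−1.83 ± 0.22, adjusted p = 2.02e-08). CESA5, another primary wall subunit, was at 505, 404 and 621 CPM and then at 66.1, 48.6 and 27.8 CPM (−3.42 ± 0.23). Neither gene's groups overlapped, and in both mature replicate 3 was the lowest library. CESA4, a subunit of the secondary wall complex, was at 25.5, 18.9 and 24.4 CPM and then at 443, 375 and 263 CPM (3.97 ± 0.27, adjusted p = 1.77e-13). Its partners CESA9 and CESA7 were under 1 CPM in each stage 5 library, and mature replicate 3 was again the lowest. CESA9 reached 65.1, 50.5 and 18.8 CPM (6.17 ± 0.54) and CESA7 reached 37.1, 28 and 9.33 CPM (5.41 ± 0.61).

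Genes of lignin synthesis rose beside them. COMT1, a caffeic acid O-methyltransferase, was at 110, 88.2 and 83.9 CPM at stage 5 and at 891, 451 and 573 CPM in mature florets (2.77 ± 0.32), and it had already risen from stage 4 to 5 (1.65, adjusted p = 0.00051). CAD2, the main cinnamyl alcohol dehydrogenase of rice lignin, changed by 3.16 ± 0.24, and BC1, a COBRA-like protein of mechanical tissue, by 7.01 ± 0.63. CAD7 was the member that fell, from 31.3, 41.7 and 34.5 CPM to 9.08, 7.82 and 8.15 CPM (−2.101 ± 0.169). The summed level of the list was 340 to 388 CPM at stage 5 and 1976 to 2667 CPM in mature florets.

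Of 14 tested genes for other wall polysaccharides 4 rose and 10 fell (median −1.35). Their log2 fold changes ran from −2.96 to 8.08, with 3 rises and 8 falls of at least 2-fold. CSLF6, which makes mixed-linkage glucan, went from 207, 159 and 216 CPM to 45.3, 31.4 and 19 CPM (−2.60 ± 0.27), and UAM1, a UDP-arabinopyranose mutase, changed by −1.11 ± 0.12. Of the xylan genes, IRX9 fell (−2.96 ± 0.14) and its relative IRX9L rose (1.11). All 3 silicon transporter genes were higher in mature florets. LSI1, the influx channel, was at 0.186, 0.109 and 0.0426 CPM and then at 53, 27.6 and 35.6 CPM (8.34 ± 0.74), and LSI6, which distributes silicon in shoots, was at 12.4, 12.1 and 11.4 CPM and then at 78.5, 94.8 and 80.4 CPM (2.82 ± 0.22). LSI2, an efflux transporter, had no count at stage 5 and 34 counts in mature florets, which makes it at least 15.5-fold higher, and DESeq2 did not call it (adjusted p = 0.0614). The list's median was 7.11, or 3.96 with LSI2 at that bound.

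Expansins, which loosen walls, changed strongly in both directions. Of 20 tested genes 12 rose and 8 fell, and all 20 changed by at least 2-fold. EXPA7 stood at 197, 204 and 163 CPM at stage 5 and at 20.9, 19.4 and 30.5 CPM in mature florets (−2.99 ± 0.18). EXPA16 fell by 5.88 ± 0.14, EXPB16 by 5.15 ± 0.28 and EXPA6 by 3.00 ± 0.18 on the log2 scale. EXPB9, a beta-expansin of the grass pollen allergen class, had no count in any stage 5 library and stood at 5765, 7345 and 6478 CPM in mature florets, at least 169100-fold higher (all bounds here set 3 counts over the group in place of 0). It alone took 0.511% of the mature counts. EXPB2 was likewise at 0 and then at 54.7, 63.2 and 77.4 CPM, at least 1701-fold higher. EXPA32 had 1 count at stage 5 and 12039 in mature florets, a ratio of 16510 with a 95% exact counting interval of 2963 to 652200. Beta-expansin genes lie in tandem, so the name and the reads of a single copy are less certain than the family.

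**Figure D3:**
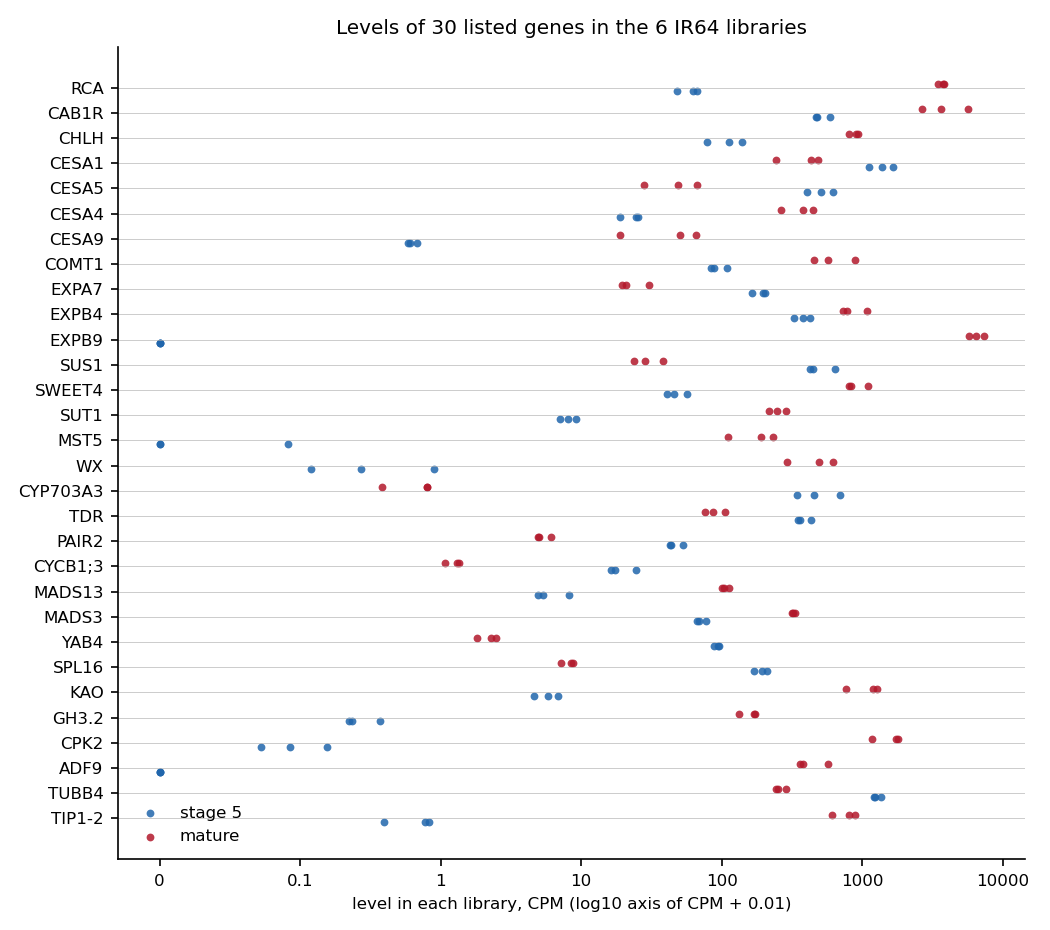
Level of 30 listed genes in each of the 6 IR64 libraries, on a log10 axis of CPM plus 0.01, with blue points for stage 5 and red points for mature florets. The 3 points of a group lie close together beside the distance between groups for genes such as RCA, EXPB9 and YAB4.

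Tapetum genes fell more often than they rose. Of 16 tested genes of the tapetum and pollen wall 8 fell and 4 rose (median −0.89). CYP703A3, a fatty acid hydroxylase that supplies sporopollenin and cutin of the anther, was at 693, 454 and 343 CPM at stage 5 and at 0.37, 0.79 and 0.79 CPM in mature florets, the largest fall among named genes by the size rule (−9.56 ± 0.69, adjusted p = 1.28e-12). PTC1, a PHD-finger regulator of tapetal death, was at 24.6, 19.9 and 11.5 CPM and then had 2 counts in all, a ratio of 539 (95% interval 149 to 4457). TDR, a bHLH factor of tapetal degeneration, went from 433, 362 and 347 CPM to 75.6, 86.9 and 106 CPM (−2.09 ± 0.25). AP25, an aspartic protease of tapetal cell death, fell by 3.50 ± 0.15, and MSP1, a receptor kinase that limits the number of sporogenous cells, by 1.12 ± 0.13. The groups did not overlap for these 5 genes, as in 31.5% of all tested genes with mature florets lower. EAT1, a bHLH factor of the same cascade, did not pass, at 40.6, 29.3 and 18.6 CPM against 15.6, 18.2 and 22 CPM. The members that rose were RTS, C6, DCW11 and TDL1A. RTS, named for the rice tapetum, had no count at stage 5 and stood at 176, 150 and 247 CPM in mature florets, at least 5020-fold higher. The lipid transfer protein gene C6 went from 3.54, 0.326 and 0.128 CPM to 21, 23.8 and 35.3 CPM (4.31 ± 0.70). The summed level of the list was 1153 to 1665 CPM at stage 5 and 697 to 913 CPM in mature florets. None of the MADS genes listed as late pollen markers could be named, and EXPB9, of the pollen allergen class, is given above.

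Most genes of cell division fell, and genes of meiosis fell more often than they rose. Of 17 meiosis genes 9 fell and 4 rose (median −0.46), and 11 had already been called lower from stage 4 to 5. PAIR2, an axis protein of meiotic chromosomes, stood at 43, 43.7 and 52.7 CPM at stage 5 and at 4.91, 6.12 and 5.04 CPM in mature florets (−3.12 ± 0.23), and ZEP1, the central element of the synaptonemal complex, fell by 2.53 ± 0.29. Of 59 tested genes of DNA replication and the cell cycle 41 fell and 5 rose (median −0.61). CYCB1;1, a mitotic cyclin, was at 31.8, 33.6 and 34 CPM and then at 11.4, 12.8 and 17.6 CPM (−1.25 ± 0.13), and PCNA, the sliding clamp of replication, was at 48.1, 54.3 and 51.6 CPM and then at 25, 27.2 and 28.1 CPM (−0.94 ± 0.19). Both genes' groups were apart. The helicase subunit gene MCM2 was a borderline call, at 23.15, 24 and 29.4 CPM against 25.7, 19.3 and 9.33 CPM (−0.50 ± 0.22, adjusted p = 0.0475). It rests on mature replicate 3, without which it was −0.22 (adjusted p = 0.315). The summed level of the cell division list was 1387 to 1459 CPM at stage 5 and 905 to 1011 CPM in mature florets.

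The actin and calcium lists held members with some of the largest rises and members that fell. Of 34 actin and tubulin cytoskeleton genes 11 rose and 18 fell (median −0.73), and of 26 tested calcium-dependent protein kinase and calcium ATPase genes 12 rose and 12 fell (median −0.05). ADF9, an actin-depolymerizing factor, had no count at stage 5 and stood at 360, 571 and 378 CPM in mature florets, at least 11220-fold higher. ADF6 rose by 10.62 ± 0.42 and ADF1 by 9.77 ± 0.33, and VLN4, a villin that bundles actin filaments, was at 0.261, 0.616 and 0.17 CPM and then at 294, 508 and 292 CPM (9.98 ± 0.53). CPK2, a calcium-dependent protein kinase, went from 0.0744, 0.145 and 0.0426 CPM to 1791, 1747 and 1172 CPM (14.03 ± 0.49), and CPK29 rose by 10.32 ± 0.58. The members with the largest falls were formins, which nucleate actin filaments. FH2 went from 152, 167 and 173 CPM to 1.27, 1.13 and 2.96 CPM (−6.49 ± 0.26), and FH15 fell by 3.83 ± 0.18. Of 6 ROP GTPase genes 4 fell and 1 rose (median −1.23), with RAC2 at 96.8, 95 and 98.6 CPM and then at 3.11, 2.38 and 3.65 CPM (−4.98 ± 0.17). Of 23 tested CIPK kinase genes 9 rose and 9 fell, and CIPK20, at 0 and then at 97.5, 153 and 137 CPM, was at least 3345-fold higher.

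Sugar transport genes changed in both directions, and most sucrose synthase genes fell. Of 29 tested sugar transport, invertase and sucrose synthase genes 15 rose and 9 fell (median 0.86). SUT1, a sucrose transporter of the plasma membrane, stood at 8.04, 9.17 and 7.11 CPM at stage 5 and at 216, 287 and 246 CPM in mature florets (4.94 ± 0.25, adjusted p = 2.7e-16). MST5, a monosaccharide transporter known from pollen, had 2 counts at stage 5 and 10088 in mature florets, a ratio of 6917 (95% interval 1914 to 57130). SWEET5, a sugar efflux carrier, went from 0.149, 0.181 and 0.0851 CPM to 679, 452 and 302 CPM (11.68 ± 0.89). SUS1, a sucrose synthase, was at 446, 634 and 426 CPM at stage 5 and at 28.6, 23.6 and 38.1 CPM in mature florets (−4.06 ± 0.32). Its groups lay more than 10-fold apart. SUS5, SUS6 and SUS7 fell by 4.30, 2.99 and 4.03 on the log2 scale, SUS4 rose by 1.80, and SUS2 did not pass the test (−0.07). CIN2, a cell wall invertase, rose by 0.86 ± 0.14, although it cannot be told from its neighbour CIN3 by position alone.

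Of 8 starch synthesis genes 6 rose and none fell (median 0.61). WX, the granule-bound starch synthase that makes amylose in endosperm and pollen, went from 0.261, 0.109 and 0.894 CPM to 293, 617 and 489 CPM (10.17 ± 0.50). The other 5 that rose changed by 0.51 to 0.93, and 1 of them, ISA1, lost its call under upper-quartile scaling (0.34, adjusted p = 0.203). Under that scaling 5 of the 8 genes rose and 2 fell. With library totals alone 4 rose and 2 fell, and in a fit of the 6 libraries alone 5 rose and 1 fell. Of 11 hexokinase and fructokinase genes 5 rose and 5 fell (median 0.02). HXK5, a glucose-sensing hexokinase, was at 87.8, 83.2 and 78.9 CPM and then at 601, 885 and 886 CPM (3.25 ± 0.13), and HXK10, a hexokinase needed for anther dehiscence, changed by 3.02 ± 0.35.

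Floral organ identity genes were mostly higher in mature florets. Of 20 MADS-box and related identity genes 15 rose and 3 fell (median 1.15). The ovule genes MADS13 and MADS21 changed most with the nucellus gene MADS29 and with MADS20. MADS13 stood at 8.15, 5.37 and 4.9 CPM at stage 5 and at 113, 104 and 100.2 CPM in mature florets (4.10 ± 0.20, adjusted p = 1.76e-16), and MADS21 changed by 5.95 ± 0.44. Of the C-class genes of stamen and carpel, MADS3 was at 76.7, 66.8 and 68.6 CPM and then at 322, 334 and 314 CPM (2.19 ± 0.12), and MADS58 changed by 1.69 ± 0.12. Of the B-class genes of lodicule and stamen, MADS16 was at 409, 396 and 366 CPM and then at 981, 928 and 1268 CPM (1.44 ± 0.11), and MADS4 changed by 1.60 ± 0.15. MADS5, a SEPALLATA-like gene, fell from 130, 147 and 140 CPM to 34.4, 35.5 and 41.6 CPM (−1.90 ± 0.11), and MADS1, the lemma and palea gene given above, did not pass (−0.05 ± 0.09). Of 8 other tested MADS genes 6 rose and none fell (median 1.41).

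Regulators of hull growth were mostly lower, and YABBY genes changed in both directions. Of 8 tested hull and grain size genes 6 fell and 1 rose (median −0.97). Of 6 YABBY genes, which mark the abaxial side of lateral organs in Arabidopsis, 3 fell and 1 rose, by 2.97 (median −0.68). The summed level of the YABBY list was 748 to 799 CPM at stage 5 and 1001 to 1212 CPM in mature florets. That of the hull list was 588 to 661 CPM and then 276 to 306 CPM. SPL16, the grain width gene GW8, stood at 170, 210 and 194 CPM at stage 5 and at 8.76, 8.5 and 7.21 CPM in mature florets (−4.55 ± 0.12). YAB4 went from 88.1, 94.5 and 94.9 CPM to 1.8, 2.27 and 2.47 CPM (−5.41 ± 0.16, adjusted p = 1.9e-21). In both genes the 3 mature libraries were alike and far below stage 5. SPL13, SPL14 and GW2, further grain size genes, fell by 2.60, 2.18 and 1.29 on the log2 scale. The hull member that rose was ILI6, an HLH protein that promotes lemma and palea cell elongation, from 1.23, 1.31 and 1.32 CPM to 32.1, 45.5 and 52.5 CPM (5.07 ± 0.29). Of 11 tested meristem genes 4 fell and 3 rose (median −0.18), and OSH1, the KNOX meristem gene, was at 15.7, 30.4 and 24.05 CPM against 34.6, 15.1 and 23.8 CPM with no call. G1, which specifies the sterile lemma, fell by 5.95, and RFL, the rice LEAFY gene, rose by 3.48.

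Hormone genes changed in both directions. Of 10 gibberellin genes 6 rose and 4 fell (median 1.00). The genes that rose included enzymes of synthesis, with KAO, ent-kaurenoic acid oxidase, at 5.77, 6.85 and 4.64 CPM at stage 5 and at 764, 1188 and 1261 CPM in mature florets (7.54 ± 0.24, adjusted p = 1.15e-20). KO2, ent-kaurene oxidase, changed by 2.90 ± 0.14 and CPS1, the entry enzyme of the pathway, by 6.42 ± 0.51. The receptor gene GID1 fell by 1.20, the F-box gene GID2 by 0.55 and SD1, the GA 20-oxidase behind semi-dwarf rice, by 1.30 ± 0.33, while SLR1, the DELLA repressor, rose by 0.88 ± 0.11. Of 7 tested auxin genes 5 rose and 2 fell (median 3.41). The 2 that fell are enzymes of synthesis, FIB, a tryptophan aminotransferase (−1.55 ± 0.14), and YUCCA1 (−2.61 ± 0.35). Those that rose included enzymes that inactivate auxin. GH3.2, which conjugates it to amino acids, was at 0.223, 0.3625 and 0.213 CPM and then at 133, 172 and 171 CPM (9.18 ± 0.56), GH3.8 changed by 5.64 ± 0.29, and DAO, which oxidizes auxin and is needed for anther dehiscence, went from 7.67, 7.18 and 5.19 CPM to 199, 226 and 350.3 CPM (5.27 ± 0.30).

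Of 7 cytokinin oxidase genes 6 rose and none fell (median 2.91), with CKX5 at 7.74, 8.99 and 7.75 CPM and then at 65.1, 68 and 51.2 CPM (2.91 ± 0.27). CKX2, also called GN1A and known for grain number, did not pass (−0.14). Of 8 brassinosteroid genes 5 fell and 3 rose (median −0.76), and the receptor gene BRI1 went from 234, 207 and 259 CPM to 121, 123 and 92.7 CPM (−1.05 ± 0.12). Of 22 tested jasmonate genes 11 rose and 4 fell (median 0.41). JAMYB, a jasmonate-induced MYB gene, was at 0.298, 0.326 and 0.426 CPM and then at 100.1, 79.8 and 127 CPM (8.19 ± 0.93), and JAR1, which makes the active jasmonate conjugate, rose by 3.63. Of 32 abscisic acid and dehydration genes 15 rose and 5 fell (median 0.39), with SALT, a jacalin-like stress protein gene, up by 8.10 and RAB16A, a dehydrin gene, up by 4.95, and VP1, a seed maturation factor gene, down by 5.32. The RAB16 genes are tandem copies and share sequence. Of 7 ethylene genes 3 rose and 2 fell (median −0.05).

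Aquaporins also changed in both directions. Of 19 tested genes 9 rose and 8 fell (median 0.50). TIP1-2, a tonoplast channel, went from 0.819, 0.761 and 0.383 CPM to 607, 805 and 889 CPM (10.16 ± 0.38). PIP2-6, a plasma membrane channel, went from 187, 207 and 175 CPM to 4.43, 4.2 and 5.38 CPM (−5.34 ± 0.23). The groups of both genes were far apart.

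Lists of genes that follow the time of day or handling are given as context. Of 8 clock genes 2 rose and 4 fell (median −0.59). LHY, a morning gene, was at 570, 208 and 851 CPM at stage 5 and at 2525, 2424 and 1762 CPM in mature florets (2.04 ± 0.45), and GI, an evening gene, was at 288, 551 and 170 CPM and then at 103, 59.4 and 89.2 CPM (−2.005 ± 0.577). Within stage 5, replicate 2 was lowest in LHY and highest in GI. In a fit of the 6 libraries alone 2 clock genes rose and 1 fell. The sources used here do not give the harvest hour, and its part in the other results was not tested. Of 10 tested heat shock genes 4 rose and 1 fell (median 0.00). Of 4 tested fermentation genes 3 rose and none fell (median 1.89), and of 6 reactive oxygen enzyme genes 1 rose, CATA, a catalase (2.87 ± 0.19), and 1 fell (median 0.00). Of 5 tested WRKY and stress NAC genes 1 rose, NAC6 (4.03). Of 7 autophagy genes 3 rose and 2 fell (median 0.32), and of 4 blue light receptor and potassium channel genes 2 rose, PHOT1A and PHOT2, and 1 fell, PHOT1B.

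The step from stage 5 to mature florets called more genes than any earlier step of the IR64 course. Of the tested genes 2888 (10.8%), 5253 (19.7%), 4074 (15.2%) and 2792 (10.4%) were called from stage 1 to 2, 2 to 3, 3 to 4 and 4 to 5. The mature florets were also collected about 10 days or more after the developing ones. Of the 9636 genes higher in mature florets 8708 had a mature mean above all 5 developing stages, and of the 8705 lower genes 6971 had a mature mean below them all. Over all tested genes 39.0% had their highest and 35.9% their lowest of the 6 group means in mature florets. Among the lower genes, the highest developing mean lay at stage 5 in 3132 and at stage 1 in 2716, with 806, 837 and 1214 at stages 2, 3 and 4. The listed genes show both courses. CYP703A3 averaged 2.77, 2.12, 13.9 and 31.6 CPM at stages 1 to 4 before its stage 5 level and had risen by 3.97 from stage 4 to 5 (adjusted p = 2.6e-06). YAB4 averaged 408, 407, 333 and 194 CPM, so its fall began before stage 5, and PCNA averaged 332, 252, 149 and 69.2 CPM. In the list of DNA replication and cell cycle genes 24 of 59 had already been called lower from stage 4 to 5, and 49 had their lowest mean in mature florets. RCA averaged 8.49, 14.3, 26.1 and 40.1 CPM, and all 13 tested photosynthesis genes had their highest mean in mature florets. KAO averaged 7.4, 5.11, 3.93 and 3.23 CPM at stages 1 to 4.

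**Figure D4:**
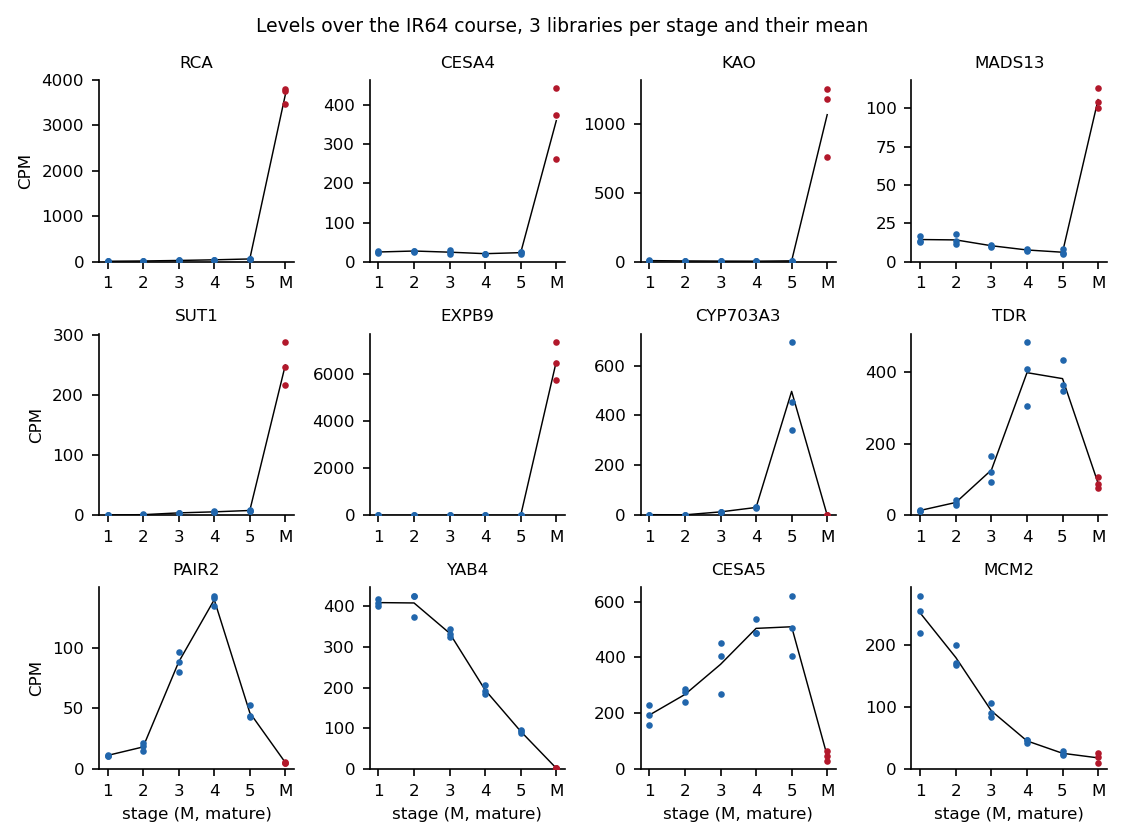
Levels of 12 listed genes (CPM, linear axes from 0) in the 18 IR64 libraries over stages 1 to 5 and mature florets (M), with 1 point per library and a line through the group means. RCA, CESA4, KAO, MADS13, SUT1 and EXPB9 are highest in mature florets; CYP703A3 peaks at stage 5, PAIR2 at stage 4, and YAB4 and MCM2 decline from the early stages.

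A part of the mature transcriptome was at or near 0 throughout development. At least 10 CPM in each mature library and under 1 CPM in each of the 15 developing IR64 libraries was found for 689 genes, which held 13.5% to 16.1% of the counts of the mature libraries and at most 0.0102% of those of a stage 5 library. EXPB9, ADF9, CPK2, MST5 and SWEET5 met this description. The same limits were met in the transgenic line by 550 of the 689 genes. The reverse, at least 10 CPM in each developing IR64 library and under 1 CPM in each mature one, was found for 15 genes. With only the stage 5 libraries held to at least 10 CPM it was found for 156. Of IDs without a name, the largest changes by the size rule were those of Os08g0218700 and Os11g0657400, at least 79700-fold and 66640-fold higher, and of Os05g0189300 and Os03g0683500, at least 24680-fold and 13800-fold lower. Os05g0189300 stood at 1302, 1320 and 1285 CPM at stage 5 and had no count in mature florets.

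In the transgenic line the same step called a similar number of genes. There 18512 genes (69.3%) were called between stage 5 and mature florets, and of 16074 genes called in both lines 16041 had the same sign. No library is shared between the steps, but they share the fit's dispersion estimates. The transgene itself was read through Os04g0637300, the ID recalled for OsEPF1, whose symbol could not be checked. In IR64 it was at 0.261, 0.725 and 0.511 CPM at stage 5 and at 0, 0 and 0.0988 CPM in mature florets, and in the transgenic line it was at 2759, 3773 and 3446 CPM and then at 2975, 3050 and 2945 CPM. Those levels match the labels of both lines.

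The size of the step differed between the lines for 434 of the 26726 genes (1.62%), with 174 (0.651%) more positive and 260 (0.973%) more negative in the transgenic line. An unadjusted p under 0.05 was reached by 3826 genes. The count depends on the fit and on single libraries: a fit of the 12 libraries alone called 9 genes, DESeq2 called 847, and leaving out 1 library at a time gave between 156, without the transgenic stage 5 replicate 2, and 850, without replicate 1 of that group. Of the 528 listed genes tested 17 were among the 434. LSI6 rose less in IR64, from about 12 CPM, than in the transgenic line, where it went from 3.76, 2.58 and 2.38 CPM to 58.1, 45.6 and 62 CPM (difference of the log2 fold changes 1.42, adjusted p = 0.016). CATA also rose less in IR64, reaching 322, 192 and 243 CPM against 733, 749 and 756 CPM in the transgenic line (difference 1.08, adjusted p = 0.0259). ILI6 rose more in IR64 (difference −1.82, adjusted p = 0.00754). At stage 5 it was at 1.23, 1.31 and 1.32 CPM in IR64 and at 2.36, 5.3 and 3.59 CPM in the transgenic line. Its mature levels overlapped between the lines. PSY2 also rose more in IR64, reaching 60, 81.9 and 49.4 CPM against 25.9, 26 and 28.9 CPM in the transgenic line (difference −1.27, adjusted p = 0.0259). CYCB1;1 fell less in IR64 (difference −0.81, adjusted p = 0.0253). The clock gene PRR73 fell by 0.66 in IR64, a call that was lost without mature replicate 2 (−0.37, adjusted p = 0.114), and changed by 0.65 in the transgenic line (difference 1.31, adjusted p = 0.0307), and the ethylene receptor gene ETR2 fell by 0.88 in IR64 and stood at 0.07 in the transgenic line (difference 0.95, adjusted p = 0.00501). In the fit of the 12 libraries alone all 7 differences kept their sign and lost their call, with adjusted p from 0.0916 for LSI6 to 0.386 for CYCB1;1. When 1 replicate was left out at a time, ILI6 and ETR2 kept their calls, and LSI6, CATA, PSY2, CYCB1;1 and PRR73 each lost theirs at least once.

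**Figure D5:**
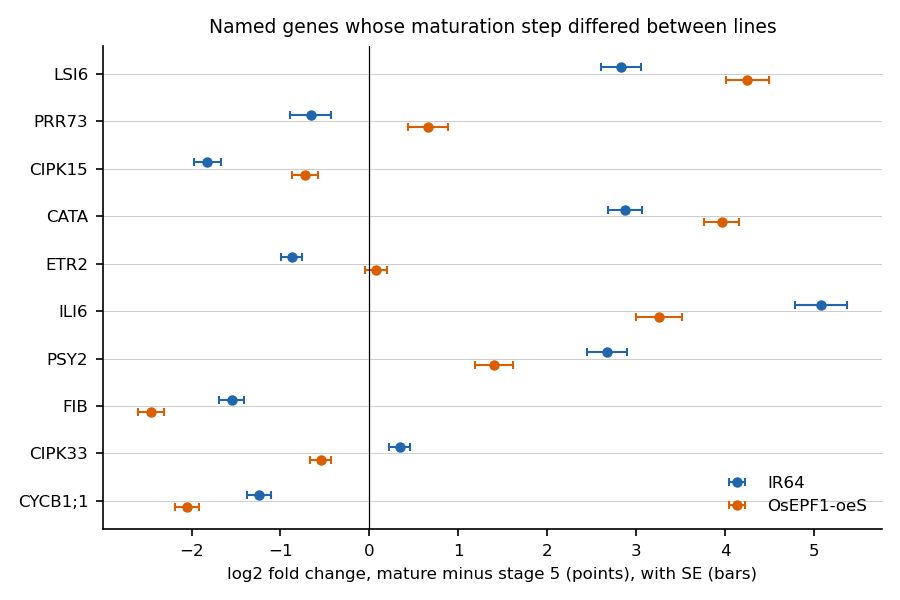
Log2 fold change (mature minus stage 5, points) with its SE (bars) in IR64 and in OsEPF1-oeS for 10 named genes whose step differed between the lines, the 5 per direction with the largest difference among called genes with at least 20 CPM on average over the 12 libraries and with the lines not overlapping at stage 5 or in mature florets. LSI6 and CATA lie further right in OsEPF1-oeS, ILI6 and PSY2 further right in IR64.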

How the data were processed

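The authors deposited raw read counts for each gene ID. The submitters' processing notes name Trimmomatic 0.38, HISAT2 2.1.0, featureCounts, Subread 2.0.0 and the IRGSP-1.0 build. Poly(A) libraries were made, per the labels. The sources used here give no strand or multi-mapping setting, so antisense genes and near-identical copies are uncertain. In R 4.3.3 with edgeR 4.0.16, counts were filtered (filterByExpr), scaled by TMM and fitted with the robust quasi-likelihood method as 12 group means over 36 libraries (24 residual degrees of freedom), and tested two-sided. Replicates are separate samples in the labels, and p-values reflect how far these samples spread, which may be technical. Intervals and bounds cover counting error only. The SE of a log2 fold change is its absolute value divided by the square root of the quasi-likelihood F. It draws on dispersions fitted over all 36 libraries, so it is not the spread within a group. For genes with few counts in a group it is approximate.

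Members and lists were chosen with earlier results of these data known. The table pairs no ID with a name. Names come from 645 recalled ID and symbol pairs in 40 lists, kept (556) where RefSeq's table for ASM3414082v1 holds the symbol on the same chromosome at a relative rank within 0.01. Tandem neighbours cannot be separated so, and no member of the lists for stomatal development and pollen MIKC* MADS genes was kept. The text names list members and, by size, up to 15 called genes per direction with at least 20 CPM over the 6 libraries and no overlap (5 per direction for the difference between lines), and at most 2 IDs without a name. Alternatives were RLE, upper-quartile and library-total scaling, 2 other filters, DESeq2 1.42.0, a replicate block, fewer libraries, a test against a 2-fold change, and leaving out each replicate.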

Additional observations from a re-analysis of the deposited data

Results flagged for a closer look

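The step from stage 5 to mature florets had a different size in IR64 and in OsEPF1-oeS for the genes below, by edgeR's test of the difference itself in the fit of all 36 libraries. In a fit of the 12 libraries of these stages alone, 20 of these differences kept their sign and lost their call, with adjusted p of 0.0916 or more, and Os03g0629800 kept its call. Each value is the log2 fold change of OsEPF1-oeS minus that of IR64, with its Benjamini-Hochberg adjusted p over all tested genes. The difference was positive for FH10, a formin (1.96, adjusted p = 0.00705), PRR37 (1.57, 0.0216), LSI6 (1.42, 0.016), PRR73 (1.31, 0.0307), CIPK15 (1.10, 0.00588), CATA (1.08, 0.0259), ETR2 (0.95, 0.00501) and SIP1-1, an aquaporin (0.63, 0.0324). It was negative for ILI6 (−1.82, 0.00754), HXK10 (−1.81, 0.0423), PSY2 (−1.27, 0.0259), CKX3 (−0.92, 0.0307), FIB (−0.91, 0.0165), CAD7 (−0.90, 0.0428), CIPK33 (−0.88, 0.00563), CYCB1;1 (−0.81, 0.0253) and SAPK4, a stress-activated protein kinase (−0.48, 0.0165).

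In IR64 the fold changes of FH10, PRR37 and ETR2 were −1.65, −0.96 and −0.88, and in OsEPF1-oeS they were 0.32, 0.61 and 0.07. HXK10 changed by 3.02 in IR64 and 1.21 in OsEPF1-oeS, and CKX3 by 1.88 and 0.96. CAD7 fell in both lines, with fold changes of −2.101 in IR64 and −3 in OsEPF1-oeS. CIPK15 has a near-identical copy on another chromosome, so its reads are uncertain.

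Among IDs without a name the difference was 3.69 for Os09g0452800 (adjusted p = 0.0384) and 3.58 for Os04g0543700 (0.0199), and −4.43 for Os03g0629800 (8.22e-08) and −3.63 for Os02g0137700 (0.00485). Os09g0452800 fell by 4.75 in IR64 and stood at −1.06 in OsEPF1-oeS, where it was not called (adjusted p = 0.154). Its stage 5 mean in OsEPF1-oeS rested on replicate 1, with 21.6, 1.08 and 1.32 CPM. Os04g0543700 was likewise at 144.6, 10.75 and 13.19 CPM there. Across genes, replicate 1 of that group correlated with the other replicates at 0.980 and 0.982, where replicates 2 and 3 correlated at 0.995. Os03g0629800 rose by 6.21 in IR64 and by 1.78 in OsEPF1-oeS. Its levels were apart at stage 5, at 2.49, 1.81 and 1.62 CPM in IR64 and 46.5, 54.4 and 58.4 CPM in OsEPF1-oeS. They overlapped in mature florets, at 83.7, 155 and 203 CPM in IR64 and 200, 214 and 133 CPM in OsEPF1-oeS. Chance flags some genes at this threshold, and the fit of the 12 libraries called 9 genes in all.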

How the results depend on the processing

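The number of genes called between stage 5 and mature florets was 18341 and stayed between 14651 and 19333 under the other scalings, filters and DESeq2, at 15170 in a fit of the 6 libraries alone, and at 17606 to 17991 when any 1 replicate was left out. Against a change of at least 2-fold it was 9301, by the construction of that test. Of the listed genes 426 were called, with 387 to 440 under these alternatives and 411 to 427 with 1 replicate left out. The difference between the lines gave 434 genes, 847 in DESeq2 and 9 in a fit of the 12 libraries alone; the cause was not tested. With 1 replicate left out it gave 156 to 850: 177 and 288 without IR64 stage 5 replicates 1 and 2, 850, 156 and 215 without OsEPF1-oeS stage 5 replicates 1, 2 and 3, and 677 and 238 without OsEPF1-oeS mature replicates 1 and 2.

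Of 434 genes examined singly for the IR64 step that passed the test, 375 kept their call under each alternative that tested them. The other 59 lost it or turned sign at least once, among them 5 that turned. Genes filtered out of an alternative were not scored there, and the test against a 2-fold change was left aside. The 5 that turned did so with library totals alone: CHLG (−0.03), FRK1 (0.00), JAZ1 (−0.05), JAZ3 (−0.05) and MADS56 (−0.04). Of genes that had not passed, FEN1B (−0.27), HSP81-1 (−0.29), SAPK8 (−0.26) and YAB1 (−0.26) turned under the same scaling, and WOX4 (−4.73), which has few counts, without IR64 mature replicate 3. Of the differences between the lines named in the text, 20 lost their call in the fit of the 12 libraries, and 11 without OsEPF1-oeS stage 5 replicate 2. The median of the aquaporin list was −0.07 with at least 5 CPM required in 3 libraries, and that of the heat shock list −0.31 with library totals alone. List medians near 0 took either sign: the meristem median was 0.30 without IR64 stage 5 replicate 2 and −0.92 without IR64 mature replicate 3, the ethylene median 0.52 without IR64 stage 5 replicate 3 and 0.40 without IR64 mature replicate 3, and the hexokinase and fructokinase median −0.31 with library totals alone. The median of the calcium list was 0.01 with RLE scaling.

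The labels do not say whether the replicate numbers pair the samples. Deviations from the group means correlated between same-numbered IR64 libraries at 0.00, −0.38 and −0.38. Such deviations are tied to each other within a group, so they cannot show whether samples share a plant, day or batch. With the replicate number as a block, 18342 genes and 425 listed genes were called, and 483 for the difference. Depth limits genes with at most 3 counts in a group, which are given as a bound or a ratio.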
